A study of Cucurbita moschata with 6 samples.

Results

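Brassinosteroid synthesis and signalling genes were taken from a transcript table of pumpkin (Cucurbita moschata) hypocotyls, the stem below the cotyledons. They were chosen by product name, as every gene whose deposited description names brassinosteroid, brassinazole, BRI1, BES1, BZR1, a shaggy-type kinase or a cytochrome P450 of the CYP85A, CYP90A to CYP90D, CYP724B or CYP734A families. This gave 52 of 32205 genes: 8 of synthesis, 5 of inactivation, 4 receptors, 8 co-receptors and receptor regulators, 15 shaggy-type kinases, 10 BES1/BZR1 factors and 2 others.

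The study asked how far-red light affects elongation of the pumpkin hypocotyl, and groups SR and SCK had 3 libraries each. All seedlings were C. moschata from 1 registered source, had unfolded cotyledons, and grew under light for 14 h at 28 °C and in darkness for 10 h at 18 °C each day. The labels give far-red light for 120 s as the treatment of all 6 samples, spell out neither SR nor SCK and give no transgene or mutation. SCK was taken for the control, since CK often abbreviates control and the series names 1 treatment and 1 control. The labels do not say that replicates were separate plants, and the spread that the p-values use may be technical.

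Brassinosteroids are plant steroid hormones that promote cell elongation, and seedlings short of them stay dwarfed. Cytochrome P450 enzymes build the active steroids from sterols, and another P450, CYP734A1, inactivates them. In Arabidopsis the hormone binds the receptor kinase BRI1, which acts with the co-receptor BAK1 and is held back by the inhibitor BKI1, and the signal switches off shaggy-type kinases such as BIN2 (kinase eta). Those kinases otherwise phosphorylate and disable the transcription factors BZR1 and BES1.

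Deposited counts summed to between 63870714 and 72356397 in SR libraries and between 52300725 and 67350441 in SCK libraries. SCK replicate 3 lay between the other two in 13552 of 23509 tested genes (57.6%), in 30 of the 42 tested members (71.4%), and in 2375 (86.1%) of the 2760 tested genes whose FPKM differed at least 2-fold between SCK replicates 1 and 2. A gap that wide tends to hold any further library, independent or not, and no other replicate was examined in this way. These shares therefore cannot decide whether SCK replicate 3 is independent of the other SCK libraries. Its independence is not known, while every n = 3, SD and p-value here counts it as independent. Tissue markers were also called: the green-tissue list had 12 falls among 44 tested. Its sums overlapped, at between 11336 and 13585 FPKM in SR and between 13343 and 22316 FPKM in SCK. Xylem markers had 7 rises among 24. Their sums did not overlap, at between 215 and 284 FPKM in SR and between 153 and 208 FPKM in SCK. Phloem markers had 6 rises among 24. Their sums overlapped, at between 3717 and 6494 FPKM in SR and between 4043 and 4267 FPKM in SCK. The part of these tissue markers in the results below was not tested. In bulk tissue fewer cells of a type cannot be told apart from less RNA per cell. Handling-stress genes had 5 rises and 1 fall among 30. The test described below called 7.2% of all tested genes as rises and 7.16% as falls.

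In SR against SCK 8 members were called, 3 as rises and 5 as falls, among the 42 that reached 1 FPKM in at least 3 libraries. Levels are deposited FPKM, which are scaled to transcript length and library size, and are given as mean ± SD (n = 3 each) where single libraries are not. Calls, log2 fold changes (± SE) and adjusted p-values are from edgeR's quasi-likelihood test over all 23509 tested genes with Benjamini-Hochberg adjustment, at an adjusted p under 0.05. The rises were 2 synthesis genes, a CYP85A-like and the CYP90B1 gene, and 1 kinase eta-like gene. The falls were 1 CYP734A1-like gene of inactivation, kinases of the kappa, theta and epsilon types, and 1 BZR1-like factor. Over all tested genes 14.4% were called, 7.20% as rises and 7.16% as falls, and the members' share of 8 in 42 lies near that. Without TMM scaling the median log2 change over the whole table moved to 0.14, with 2602 rises and 1155 falls in place of 1692 and 1683, and the members gave 4 rises and 2 falls. FPKM of SR and SCK did not overlap in 16 of the 42, against 40.6% of all tested genes. SR lay above in 11 and below in 5, against 27.9% and 12.7% of all tested genes. The FPKM lack the TMM factors, which were 1.01 to 1.08 in SR and 0.926 to 0.976 in SCK. Relative to the edgeR changes they therefore lean towards SR. These shares and this lean apply to every statement below that groups do not overlap. DESeq2 called 5 rises and 5 falls among the members, where it called 25.6% of all tested genes (13.0% rises and 12.7% falls), and limma called 4 rises and 2 falls, against 10.1% and 4.63% of all. The median log2 change was -0.01 over the tested members and 0.01 over all tested genes, and the median absolute change was 0.24 and 0.33. An unadjusted edgeR p under 0.05 was found for 7832 of the 23509 tested genes and for 12 of the 42 members. The counts of such p-values by role below stand against that share. Counts of calls by role below stand against the called shares of all tested genes, 14.4% by edgeR and 25.6% by DESeq2. All 42 members had at least 1 library of each group at 1 FPKM or more. The filter was met by 4 of them through all 3 SR libraries without all 3 SCK libraries, among them the called CmoCh04G029400 with 1 SCK library at that level, and by 2 the other way round, among them the called CmoCh10G006140.

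**Figure D1:**
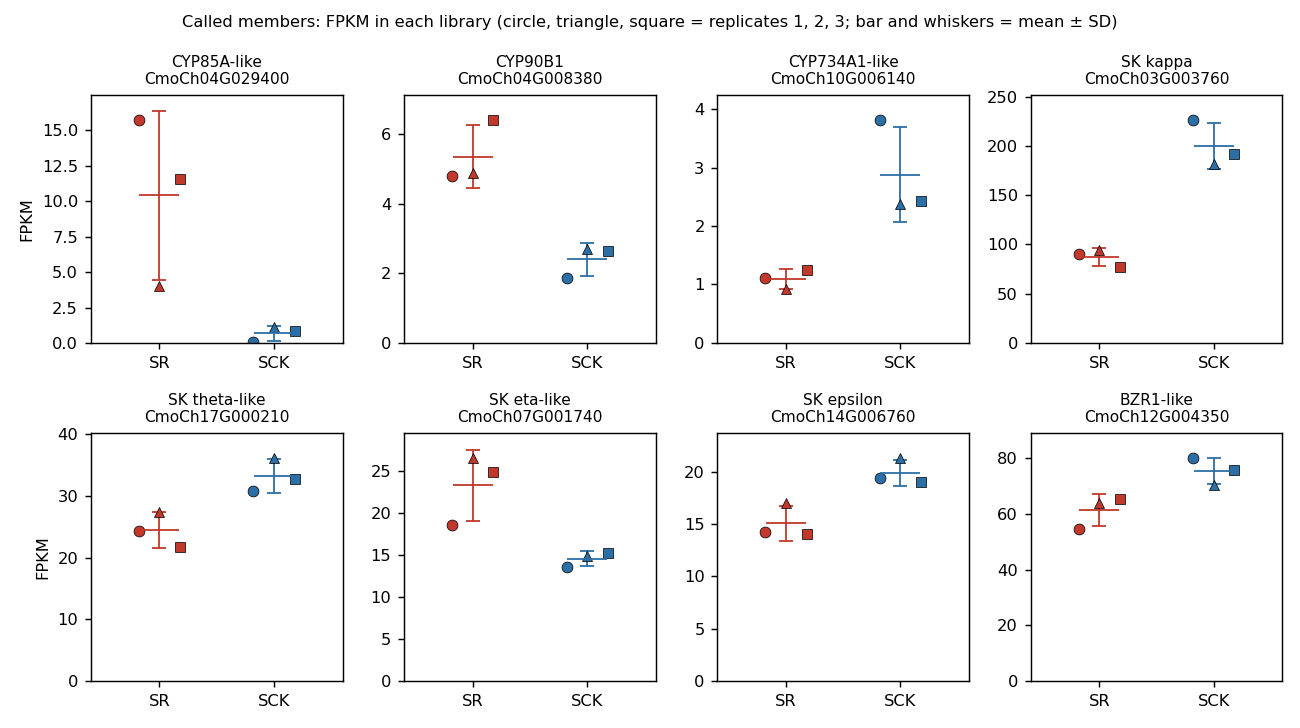
FPKM (y axis, from 0) of the 8 called members in each of the 3 SR and 3 SCK libraries, with group means and SD. The SR and SCK values do not overlap in any panel, and the widest relative gap is that of CYP85A-like CmoCh04G029400, at 10.4 ± 5.95 FPKM in SR and 0.667 ± 0.541 FPKM in SCK.

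In synthesis, 1 of 2 CYP85A-like genes and the single CYP90B1 gene rose in SR. CYP85A enzymes carry out the late ring oxidation that yields castasterone. The CYP85A-like gene CmoCh04G029400 (chromosome 4, 20826192 to 20828385) had 15.7, 3.99 and 11.5 FPKM in SR replicates 1 to 3, against 0.0679, 1.12 and 0.813 FPKM in SCK replicates 1 to 3. It lay near or under 1 FPKM in every SCK library, and the lowest SR library was above the highest SCK library. It rose by 3.86 ± 0.89 on the log2 scale (edgeR adjusted p = 0.0346). The call was lost without SR replicate 1 or 3 or SCK replicate 2 or 3 (edgeR adjusted p = 0.0612 to 0.125). The other CYP85A-like gene, CmoCh15G002350 on chromosome 15, had 10.1, 11.4 and 17.2 FPKM in SR against 3.49, 9.38 and 6.21 FPKM in SCK. These groups did not overlap either, but the gene was not called (log2 change 0.89 ± 0.35, edgeR adjusted p = 0.130). Summed over this pair, the level was 23.3 ± 7.03 FPKM in SR and 7.03 ± 3.47 FPKM in SCK (SD, n = 3 each). The log2 ratio of CmoCh04G029400 to CmoCh15G002350 within a library was -0.48 ± 1.08 in SR and -3.89 ± 1.55 in SCK (SD, n = 3 each), and its groups did not overlap. An exact two-sided permutation test of this ratio, chosen after the values were seen, gave p = 0.1, the smallest that 3 libraries against 3 allow. Groups that do not overlap fix that p in advance, so it adds no support.

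CYP90B1, known as DWF4 in Arabidopsis, performs the side-chain hydroxylation held to limit the rate of synthesis there. The CYP90B1 gene CmoCh04G008380 (chromosome 4, 4170265 to 4174315) had 4.79, 4.87 and 6.40 FPKM in SR and 1.86, 2.69 and 2.65 FPKM in SCK. All 3 SR libraries lay above all 3 SCK libraries, and it rose by 1.03 ± 0.21 (edgeR adjusted p = 0.0261). This call was lost without SR replicate 3 or any 1 SCK library (edgeR adjusted p = 0.0562 to 0.0973). CYP724B1, which in rice carries out the same kind of hydroxylation, was at 7.71 ± 0.959 FPKM in SR and 5.21 ± 1.26 FPKM in SCK, with an adjusted p of 0.157 by edgeR. The most abundant synthesis gene was CYP90A1 (CmoCh04G011890), the relative of Arabidopsis CPD, at 66.6 ± 12.7 FPKM in SR and 51.5 ± 5.67 FPKM in SCK. Its libraries overlapped and it was not called (log2 change 0.25 ± 0.18, edgeR adjusted p = 0.385). A NUP88-like gene on the other strand overlaps it by 278 bp, at 12.8 ± 0.143 FPKM in SR and 8.09 ± 0.628 FPKM in SCK. The summed level of the 8 synthesis genes was 117, 81.7 and 116 FPKM in SR replicates 1 to 3 and 58.0, 77.0 and 70.7 FPKM in SCK replicates 1 to 3, and CYP90A1 made up most of it.

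Of 6 tested synthesis genes 2 rose and 0 fell by edgeR, 3 of them had an unadjusted p under 0.05, and DESeq2 called 2 rises and 0 falls. Over all tested genes 7832 of 23509 had such an unadjusted p. FPKM of SR lay above all SCK libraries in 4 of the 6, where 27.9% of all tested genes did so. Their median log2 change was 0.66, against 0.01 over all tested genes. The 1 negative change belonged to the 90A1-like gene CmoCh04G001580 (log2 change -0.76 ± 0.43, edgeR adjusted p = 0.264). The untested 90A1-like gene CmoCh04G001570 overlaps both that gene and the untested CmoCh04G001590 on the opposite strand of chromosome 4. The sources used here do not give whether counting used strand, so reads in these overlaps cannot be told apart, and none of the 3 exceeded 2.70 FPKM in a library.

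In inactivation, 1 of 3 CYP734A1-like genes fell in SR. CYP734A1, called BAS1 in Arabidopsis, hydroxylates active brassinosteroids. The gene CmoCh10G006140 (chromosome 10, 2779472 to 2781574) had 1.11, 0.921 and 1.25 FPKM in SR, against 3.81, 2.37 and 2.44 FPKM in SCK. Every SR library was below every SCK library, and the gene fell by 1.53 ± 0.30 on the log2 scale (edgeR adjusted p = 0.0237). The fall was not called without SR replicate 2 or 3 or SCK replicate 1 or 3 (edgeR adjusted p = 0.0521 to 0.0871). Its span overlaps by 258 bp a gene on the other strand, CmoCh10G006130, which was at 2.83 ± 0.344 FPKM in SR and 3.08 ± 0.666 FPKM in SCK (edgeR adjusted p = 0.527). The most abundant copy, CmoCh12G012540, had 1.84, 8.79 and 6.14 FPKM in SR and 8.60, 11.8 and 11.0 FPKM in SCK. One SR library exceeded the lowest SCK library there, and the gene was not called (log2 change -1.06 ± 0.47, edgeR adjusted p = 0.168). The third copy, CmoCh11G005560, was not tested: it had 0.0428, 0.112 and 0.903 FPKM in SR and 0.956, 1.71 and 1.39 FPKM in SCK. The 3 copies together gave 2.997, 9.82 and 8.30 FPKM in SR and 13.4, 15.9 and 14.8 FPKM in SCK. This sum is lower in every SR library than in any SCK library, with SR replicate 1 the lowest.

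The other inactivation genes are brassinosteroid-related acyltransferases, which in Arabidopsis are thought to conjugate the steroids. CmoCh01G017030 had 0.471, 4.91 and 1.58 FPKM in SR and 1.65, 0.904 and 0.893 FPKM in SCK, with overlapping groups and an adjusted p of 0.481 by edgeR. CmoCh09G004250 had counts of 24, 0 and 28 in SR and 0 in all 3 SCK libraries and was not tested. Both carry in the deposited table a KEGG orthology entry of cutin, suberin and wax synthesis, not one of brassinosteroids. In all, 1 of 3 tested inactivation genes fell and 0 rose by edgeR, with 1 at an unadjusted p under 0.05 and 1 fall and 0 rises by DESeq2.

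**Figure D2:**
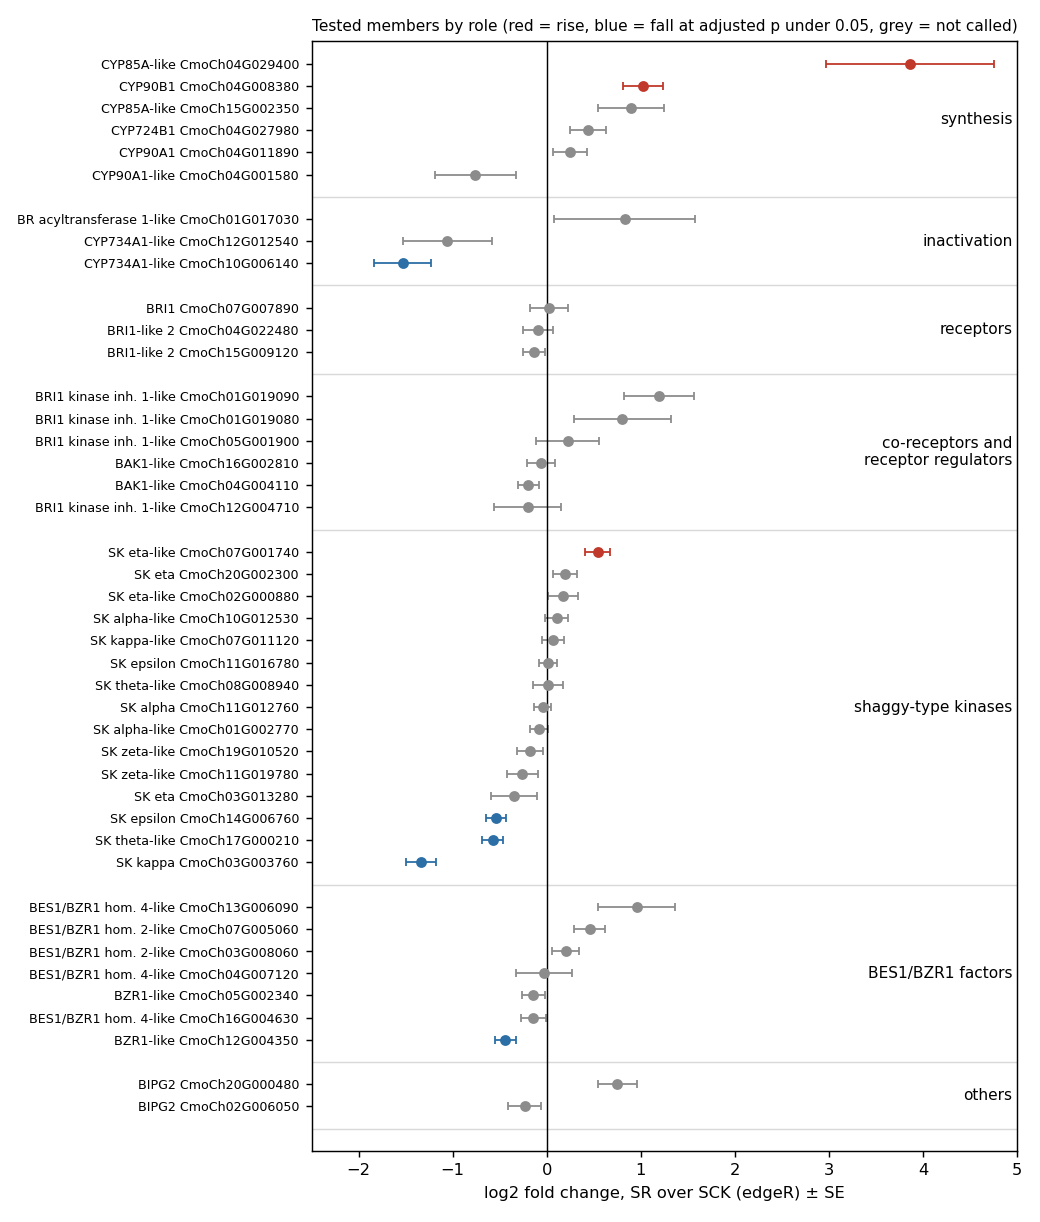
Log2 fold change of SR over SCK from edgeR, with its SE, for the 42 tested members grouped by role. Red marks the 3 rises, blue the 5 falls and grey the 34 members that were not called, and the 3 receptor genes lie between -0.14 and 0.02.

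The receptor genes had overlapping levels in SR and SCK. BRI1 (CmoCh07G007890, chromosome 7, 3611442 to 3615014) had 9.30, 17.4 and 15.4 FPKM in SR and 12.2, 12.0 and 13.2 FPKM in SCK. The SR libraries lay on both sides of the SCK range, with a log2 change of 0.02 ± 0.20 (edgeR adjusted p = 0.948). The BRI1-like 2 genes, whose Arabidopsis relative acts in vascular tissue and is not known to bind the hormone, were at 9.01 ± 0.999 FPKM in SR and 9.02 ± 1.07 FPKM in SCK (CmoCh15G009120) and at 2.27 ± 0.251 FPKM in SR and 2.21 ± 0.119 FPKM in SCK (CmoCh04G022480). A further BRI1-like gene, CmoCh04G005800, stayed under 1 FPKM in all libraries and was not tested. By edgeR 0 of 3 tested receptor genes were called, with 0 at an unadjusted p under 0.05 and 0 calls by DESeq2.

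Among co-receptors and regulators, both BAK1-like genes had overlapping groups, at 13.02 ± 2.47 FPKM in SR and 12.3 ± 1.77 FPKM in SCK for CmoCh16G002810 and 9.13 ± 0.274 FPKM in SR and 9.50 ± 0.508 FPKM in SCK for CmoCh04G004110. The genes named BRI1 kinase inhibitor 1, after the protein BKI1 that blocks the receptor at the membrane, had a summed level higher in SR, and none of the 4 tested ones passed the edgeR test. The most abundant, CmoCh01G019090 (chromosome 1, 13706256 to 13707146), had 26.3, 10.6 and 19.6 FPKM in SR against 5.32, 9.43 and 8.06 FPKM in SCK. Its groups did not overlap, and its log2 change of 1.19 ± 0.37 had an adjusted p of 0.0736 by edgeR and 0.0120 by DESeq2. The untested copies CmoCh12G004720 and CmoCh09G002120 also had all SR libraries above all SCK libraries, at 1.05 ± 0.370 and 0.686 ± 0.195 FPKM in SR and 0.365 ± 0.116 and 0.177 ± 0.0358 FPKM in SCK. Summed over the 6 inhibitor genes, the level was 35.9, 20.5 and 26.3 FPKM in SR and 10.5, 15.4 and 14.5 FPKM in SCK. Of these genes CmoCh01G019090 overlaps CmoCh01G019080 by 747 bp and CmoCh12G004720 lies within CmoCh12G004710, each pair on opposite strands, so their reads cannot be told apart without strand. By edgeR 0 of 6 tested co-receptors and regulators were called, with 1 at an unadjusted p under 0.05 and 1 rise by DESeq2.

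Shaggy-type kinases were the most abundant role, and all 15 genes were tested. In Arabidopsis kinases eta and zeta belong to the clade of BIN2, theta can also act on factors of the BES1/BZR1 family, and kappa lies in a separate clade. Kinase kappa CmoCh03G003760 (chromosome 3, 4676418 to 4681735) had 90.4, 94.2 and 77.1 FPKM in SR, against 226, 182 and 192 FPKM in SCK. It was the most abundant member in SCK, and every SR library held less than every SCK library. It fell by 1.34 ± 0.16 on the log2 scale (edgeR adjusted p = 0.0116, the smallest among the 42 tested members), and was not called without SCK replicate 3 (edgeR adjusted p = 0.0749). The other kappa gene, CmoCh07G011120, was at 41.9 ± 4.32 FPKM in SR and 36.4 ± 5.02 FPKM in SCK and was not called (log2 change 0.07 ± 0.12, edgeR adjusted p = 0.730). Within a library the log2 ratio of CmoCh03G003760 to CmoCh07G011120 was 1.06 ± 0.16 in SR and 2.46 ± 0.37 in SCK (SD, n = 3 each). The exact two-sided permutation test of that ratio, also chosen after the values were seen, again gave the smallest p that this design allows, 0.1. The groups of this ratio did not overlap either, so that p too was fixed in advance.

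Kinase theta-like CmoCh17G000210 (chromosome 17, 97706 to 101929) had 24.3, 27.5 and 21.7 FPKM in SR and 30.8, 36.2 and 32.8 FPKM in SCK, without overlap, and fell by 0.58 ± 0.11 on the log2 scale (edgeR adjusted p = 0.0228). It was not called without SR replicate 3 or SCK replicate 2 or 3 (edgeR adjusted p = 0.0623 to 0.0968). The other theta-like gene, CmoCh08G008940, was at 3.71 ± 0.222 FPKM in SR and 3.35 ± 0.435 FPKM in SCK. A gene described as kinase epsilon, CmoCh14G006760 (chromosome 14, 3444499 to 3460699), had 14.2, 17.01 and 14.0 FPKM in SR and 19.4, 21.3 and 19.0 FPKM in SCK, and fell by 0.54 ± 0.11 (edgeR adjusted p = 0.0237). That call too was lost without SR replicate 3 or any 1 SCK library (edgeR adjusted p = 0.0551 to 0.0921). Its label is in doubt: the deposited table gives it the KEGG pathway of the spliceosome and an enzyme class of helicases, and it spans 16201 bp, the longest of the members. The other epsilon gene, CmoCh11G016780, was at 24.8 ± 1.23 FPKM in SR and 22.3 ± 0.894 FPKM in SCK (log2 change 0.02 ± 0.09).

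Of the 4 kinase eta genes, the type of BIN2, 1 rose. CmoCh07G001740 (chromosome 7, 922423 to 929504) had 18.5, 26.5 and 24.8 FPKM in SR against 13.5, 14.9 and 15.2 FPKM in SCK, all SR libraries above all SCK libraries, and rose by 0.54 ± 0.13 (edgeR adjusted p = 0.0395). The rise was not called without any 1 library other than SR replicate 1 (edgeR adjusted p = 0.0914 to 0.131). The gene overlaps by 684 bp a gene on the other strand that is listed at a count of 0 in all 6 libraries. It was the least abundant of the 4. The most abundant, CmoCh03G013280, had 88.2, 114 and 159 FPKM in SR and 163, 112 and 141 FPKM in SCK, with wholly mixed libraries and a log2 change of -0.35 ± 0.25 (edgeR adjusted p = 0.368). Summed over the 4 genes, eta transcripts were at 287 ± 58.1 FPKM in SR and 268 ± 29.2 FPKM in SCK (SD, n = 3 each), so the groups of this sum differed by less than their spread. The kappa sum was 129 ± 11.5 FPKM in SR and 236 ± 18.3 FPKM in SCK. The remaining eta genes, CmoCh02G000880 and CmoCh20G002300, had log2 changes of 0.17 ± 0.16 and 0.19 ± 0.13, and the 3 alpha and 2 zeta kinases lay between -0.26 and 0.10, with 0 of these 7 called by edgeR or DESeq2 and 0 at an unadjusted p under 0.05. The alpha sum was 162 ± 5.44 FPKM in SR and 145 ± 16.4 FPKM in SCK, and the zeta sum was 55.4 ± 11.8 FPKM in SR and 58.2 ± 1.81 FPKM in SCK. Over the 15 kinases 1 rose and 3 fell by edgeR, against 7.2% rises and 7.16% falls over all tested genes. Their median log2 change was -0.05.

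**Figure D3:**
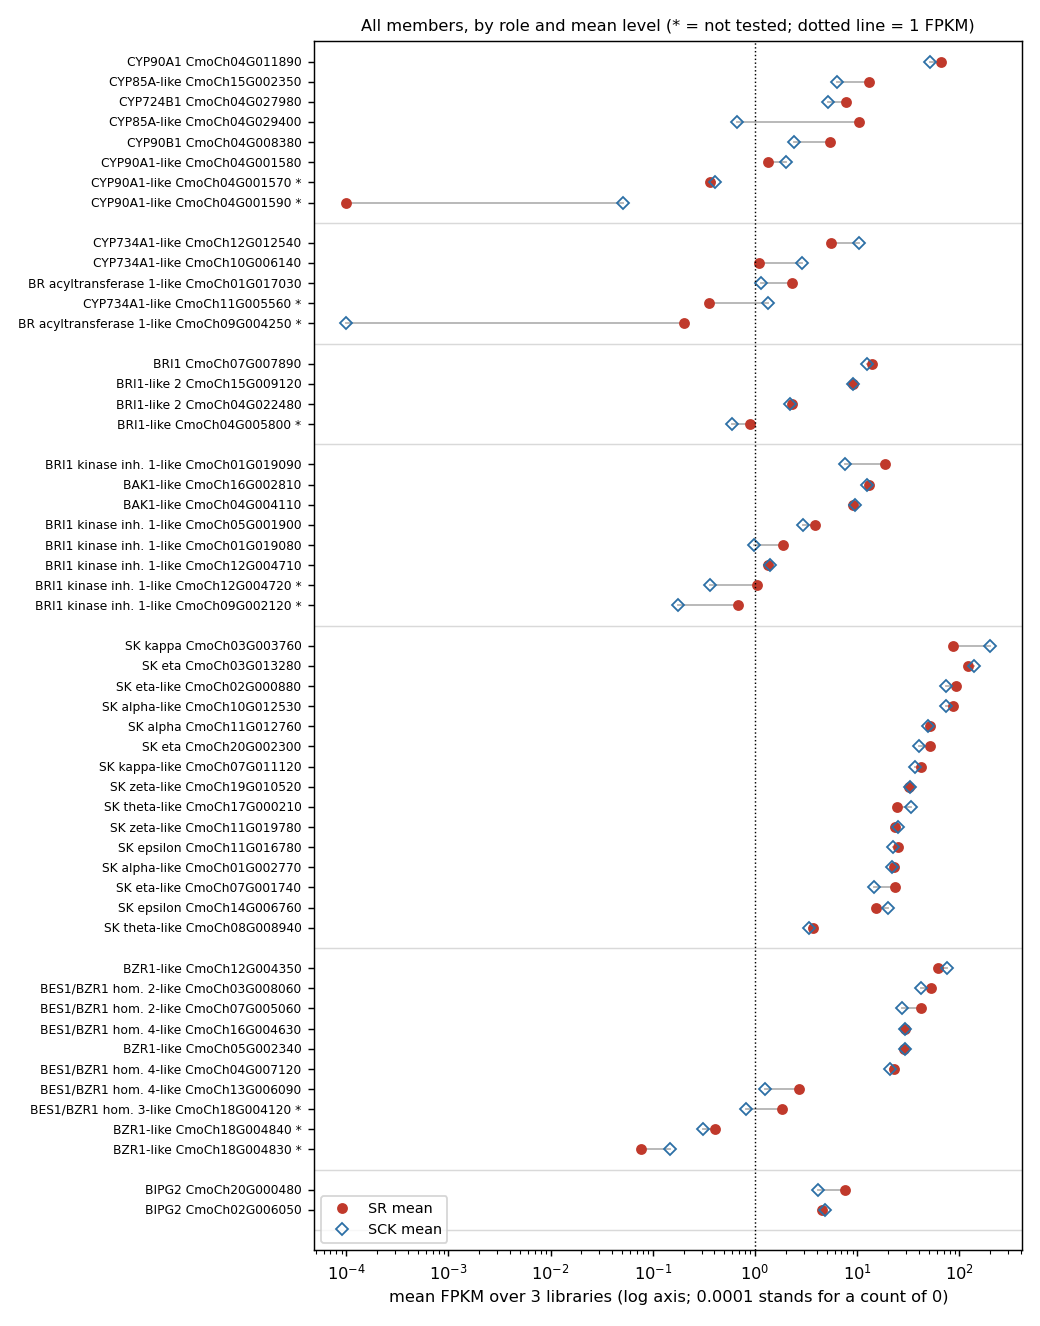
Mean FPKM (log axis) of all 52 members in SR (filled) and SCK (open), ordered by role and by the mean over all 6 libraries, where 0.0001 stands for a count of 0. Shaggy-type kinases and BES1/BZR1 factors hold most of the members above 20 FPKM, and the 10 members with an asterisk were not tested.

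The BES1/BZR1 factors carry the signal to genes in the nucleus. The most abundant, BZR1-like CmoCh12G004350 (chromosome 12, 2676074 to 2678979), had 54.6, 63.8 and 65.5 FPKM in SR and 80.0, 70.4 and 75.8 FPKM in SCK, without overlap. It fell by 0.44 ± 0.12 on the log2 scale with an adjusted p of 0.0477 by edgeR, the largest of the 8, and was not called in any edgeR fit that left out 1 library (adjusted p = 0.0654 to 0.154). The other tested BZR1-like gene, CmoCh05G002340, was at 28.9 ± 2.18 FPKM in SR and 29.0 ± 2.45 FPKM in SCK. Both genes named BES1/BZR1 homolog 2 had all SR libraries above all SCK libraries, at 52.9 ± 7.74 FPKM in SR and 41.9 ± 2.69 FPKM in SCK (CmoCh03G008060) and 41.9 ± 6.59 FPKM in SR and 27.6 ± 4.32 FPKM in SCK (CmoCh07G005060), and neither was called (edgeR adjusted p = 0.384 and 0.109). The 3 genes named homolog 4 had log2 changes of 0.95 ± 0.41 (CmoCh13G006090), -0.14 ± 0.13 (CmoCh16G004630) and -0.03 ± 0.30 (CmoCh04G007120), with overlapping libraries in each. CmoCh04G007120 overlaps by 516 bp an LRR receptor-like kinase gene on the other strand, CmoCh04G007110. That gene was at 16.8 ± 2.97 FPKM in SR and 25.3 ± 1.71 FPKM in SCK (log2 change -0.73, edgeR adjusted p = 0.0195). The gene named homolog 3, CmoCh18G004120, was not tested, at 0.858, 2.42 and 2.18 FPKM in SR and 0.661, 0.775 and 0.988 FPKM in SCK. The untested BZR1-like pair CmoCh18G004830 and CmoCh18G004840, which overlap by 1104 bp on opposite strands, stayed under 1 FPKM. The summed level of the 10 factors was 242 ± 27.7 FPKM in SR and 227 ± 19.4 FPKM in SCK. Of 7 tested factors 0 rose and 1 fell by edgeR, with 2 at an unadjusted p under 0.05 and 1 fall and 0 rises by DESeq2.

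The last members are the GTP-binding proteins BRASSINAZOLE INSENSITIVE PALE GREEN 2, named after an Arabidopsis mutant that tolerates an inhibitor of brassinosteroid synthesis and located in the chloroplast. CmoCh20G000480 had 7.41, 6.33 and 9.12 FPKM in SR and 3.26, 5.05 and 4.12 FPKM in SCK, all SR libraries above all SCK libraries, with an adjusted p of 0.0577 by edgeR and 0.0119 by DESeq2. CmoCh02G006050 was at 4.48 ± 0.568 FPKM in SR and 4.80 ± 0.551 FPKM in SCK. By edgeR 0 of these 2 genes were called, with 1 at an unadjusted p under 0.05 and 1 rise by DESeq2.

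The annotation columns that the choice did not use were set beside the roles. All 8 synthesis genes and 3 of 5 inactivation genes carry KEGG orthology entries of their role, as do 3 of 4 receptors, 8 of 8 co-receptors and regulators, 8 of 10 factors and 6 of 15 kinases, of which 8 have no entry. The KEGG pathway of brassinosteroid synthesis holds 22 genes in the table, of which 11 are members. Among the other 11, looked up after the members' values were seen, 6 were tested. A 3-epi-6-deoxocathasterone 23-monooxygenase gene (CmoCh07G004570), of the CYP90C and CYP90D kind, had 20.6, 11.5 and 11.6 FPKM in SR and 7.84, 8.22 and 7.13 FPKM in SCK, without overlap but with an adjusted p of 0.0851 by edgeR. DET2, a steroid reductase of the pathway, was at 11.3 ± 1.28 FPKM in SR and 8.45 ± 0.715 FPKM in SCK (edgeR adjusted p = 0.263). CmoCh11G010920, a polyprenol reductase 2-like gene under the same orthology entry, was at 11.4 ± 1.34 FPKM in SR and 7.73 ± 0.641 FPKM in SCK (edgeR adjusted p = 0.126). A cytochrome P450 71A1-like gene, CmoCh14G012180, went the other way, at 1.39 ± 0.570 FPKM in SR and 2.70 ± 0.994 FPKM in SCK. Its libraries overlapped and it was not called (log2 change -1.07 ± 0.42, edgeR adjusted p = 0.124). Neighbouring CYP749A22-like genes on chromosome 18, filed under the orthology entry of CYP734A1 though named as another family, were both called as falls. CmoCh18G011140 was at 7.99 ± 1.08 FPKM in SR and 15.2 ± 2.34 FPKM in SCK (log2 change -1.06 ± 0.16, edgeR adjusted p = 0.0142). CmoCh18G011150 was at 77.0 ± 12.4 FPKM in SR and 141 ± 15.8 FPKM in SCK (edgeR adjusted p = 0.0169). Neither call held without SR replicate 3 or without SCK replicate 3 (edgeR adjusted p = 0.0520 to 0.0871).

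**Figure D4:**
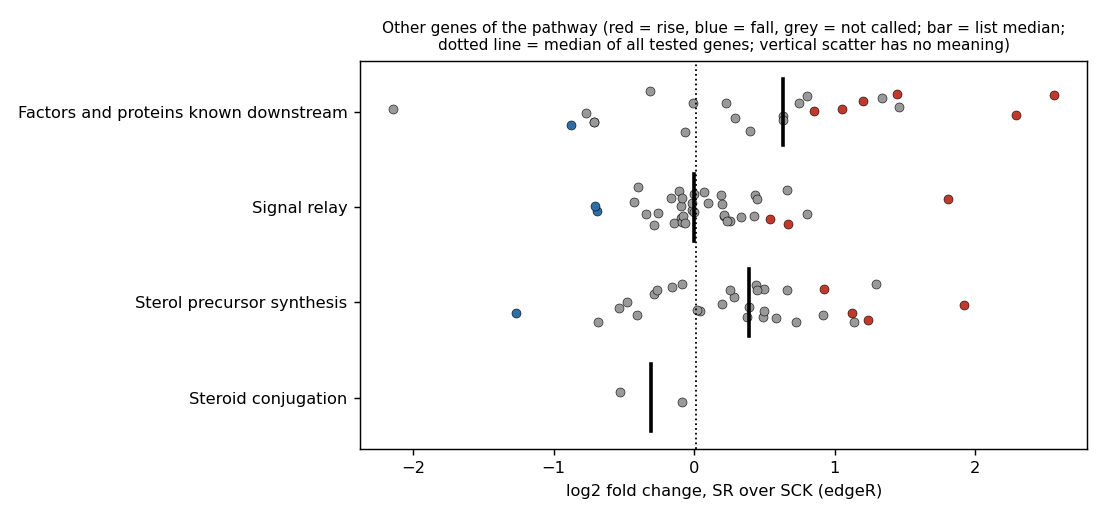
Log2 fold change of SR over SCK (x axis) of tested genes in 4 lists of other pathway genes, with called rises in red and falls in blue. The list medians are 0.63 for downstream factors and proteins, 0.00 for signal relay, 0.39 for sterol precursors and -0.31 for conjugation.

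Genes known to lie downstream of brassinosteroids in Arabidopsis were called mostly as rises, with 6 rises and 1 fall among 23 tested. Over all tested genes 7.2% were called as rises and 7.16% as falls. The list joins genes of opposed action, so neither its count nor its median gives a direction of hormone response. The median log2 change of this list was 0.63, against 0.01 over all tested genes. EXORDIUM-like 3 (CmoCh16G001900), of a family of secreted proteins that respond to the hormone, had 13.4, 22.1 and 16.4 FPKM in SR and 4.73, 6.58 and 6.01 FPKM in SCK and rose by 1.44 ± 0.20 (edgeR adjusted p = 0.0135). BEE 3-like (CmoCh10G002430), a bHLH factor named for its induction by brassinosteroid, had 26.7, 22.2 and 16.2 FPKM in SR and 7.40, 8.91 and 9.57 FPKM in SCK and rose by 1.20 ± 0.21 (edgeR adjusted p = 0.0191). Both stood higher in every SR library than in any SCK library. EXORDIUM-like 3 was not called without SCK replicate 3 (edgeR adjusted p = 0.0764), and BEE 3-like without any 1 SCK library (edgeR adjusted p = 0.0511 to 0.0868). The single fall was HBI1-like (CmoCh19G006890), a bHLH factor that promotes elongation in Arabidopsis, at 19.9, 20.9 and 16.6 FPKM in SR and 23.3, 38.2 and 35.1 FPKM in SCK (log2 change -0.88 ± 0.18, edgeR adjusted p = 0.0264). It was not called without SR replicate 2 or 3 or SCK replicate 2 or 3 (edgeR adjusted p = 0.0572 to 0.108). The other rises were the EXORDIUM-like 5 genes CmoCh02G002950 and CmoCh20G007090, a PRE6-like gene and an IBH1-like 1 gene, and the last is named after a bHLH protein that inhibits elongation, while PRE proteins oppose it. The EXORDIUM-like 5 and PRE6-like calls were lost without any 1 library other than SR replicate 1, and the IBH1-like 1 call without SR replicate 3 or any 1 SCK library (edgeR adjusted p = 0.0594 to 0.152). Of 9 tested EXORDIUM-like genes 3 rose and 0 fell by edgeR. EXORDIUM-like 3 CmoCh04G003410 was not called, without overlap (log2 change 1.34 ± 0.37, adjusted p = 0.0563 by edgeR and 0.00383 by DESeq2). CmoCh11G017870 and CmoCh05G005300 had log2 changes of 0.40 ± 0.29 and 0.75 ± 0.57 with overlapping libraries and were not called. The EXORDIUM-like 2 genes had negative changes that were not called either. CmoCh04G004340 was at 5.59 ± 0.749 FPKM in SR and 8.40 ± 2.08 FPKM in SCK, without overlap (log2 change -0.72 ± 0.23, adjusted p = 0.0769 by edgeR and 0.0229 by DESeq2). CmoCh16G002660 and CmoCh12G001260 had log2 changes of -0.77 ± 0.31 and -2.14 ± 0.87 with overlapping libraries (edgeR adjusted p = 0.131 and 0.138). Other tested BEE 3-like, PRE6-like and IBH1-like 1 genes were not called by edgeR. BEE 3-like CmoCh13G010640 and CmoCh14G008300 had log2 changes of 0.63 ± 0.28 and -0.71 ± 0.39. PRE6-like CmoCh15G002940, CmoCh04G017240 and CmoCh04G028870 had changes of 0.29 ± 0.32, -0.01 ± 0.45 and -0.31 ± 0.55. IBH1-like 1 genes CmoCh11G004260 and CmoCh12G010050 had changes of 0.80 ± 0.30 and 0.22 ± 0.39.

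In signal relay 3 of 37 tested genes rose and 2 fell, a called share of 13.5%, near the 14.4% of all tested genes. BSK3 (CmoCh07G010780), a kinase that passes the signal on from the receptor, had 37.7, 46.5 and 70.6 FPKM in SR and 14.0, 12.3 and 13.9 FPKM in SCK. Its lowest SR library held more than any SCK library, and it rose by 1.81 ± 0.23 (edgeR adjusted p = 0.0118). It was not called without SCK replicate 3 (edgeR adjusted p = 0.0749). The other BSK3 genes, CmoCh02G007730 and CmoCh20G004070, had log2 changes of -0.01 ± 0.24 and 0.00 ± 0.30. The other rises were 14-3-3 proteins, which hold phosphorylated BZR1 in the cytoplasm: GF14 iota (CmoCh12G000800, log2 change 0.67 ± 0.12, edgeR adjusted p = 0.0192) and 14-3-3-like protein D (CmoCh11G019660). The falls were topless-related corepressors, protein 4-like (CmoCh12G012240, log2 change -0.69 ± 0.15, edgeR adjusted p = 0.0314) and protein 3-like (CmoCh05G011050). The GF14 iota call was lost without SR replicate 3 or SCK replicate 3, both topless-related calls without SR replicate 2 or 3 or SCK replicate 2 or 3, and the 14-3-3-like D call without any 1 library (edgeR adjusted p = 0.0532 to 0.162). The list median was 0.00.

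Sterol precursor genes gave 4 rises and 1 fall among 31 tested. This called share of 16.1% lies near the 14.4% of all tested genes. Their median log2 change was 0.39, against 0.01 over all tested genes. Delta(14)-sterol reductase-like CmoCh14G002600 rose by 0.92 ± 0.18, at 6.50 ± 0.827 FPKM in SR and 3.10 ± 0.351 FPKM in SCK (edgeR adjusted p = 0.0227). Methylsterol monooxygenase 1-2 (CmoCh16G010840) rose by 1.12 ± 0.27 (edgeR adjusted p = 0.0374), and the other rises were a delta(24)-sterol reductase-like gene, the kind called DWF1 in Arabidopsis, and a cycloartenol-C-24-methyltransferase. A squalene monooxygenase-like gene (CmoCh05G001230), of an early step shared by all sterols, fell to 31.9 ± 5.06 FPKM in SR, against 69.3 ± 24.1 FPKM in SCK (log2 change -1.27 ± 0.28, edgeR adjusted p = 0.0314). The squalene monooxygenase-like call was lost without SR replicate 2 or 3 or SCK replicate 3, and that of CmoCh14G002600 without SR replicate 2 or 3 or SCK replicate 2 or 3 (edgeR adjusted p = 0.0539 to 0.111). The other 3 calls of this list were lost without any 1 library other than SR replicate 1 (edgeR adjusted p = 0.0641 to 0.143). Of 8 genes for steroid conjugation only 2 were tested and 0 were called by edgeR or DESeq2, with 0 at an unadjusted p under 0.05.

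**Figure D5:**
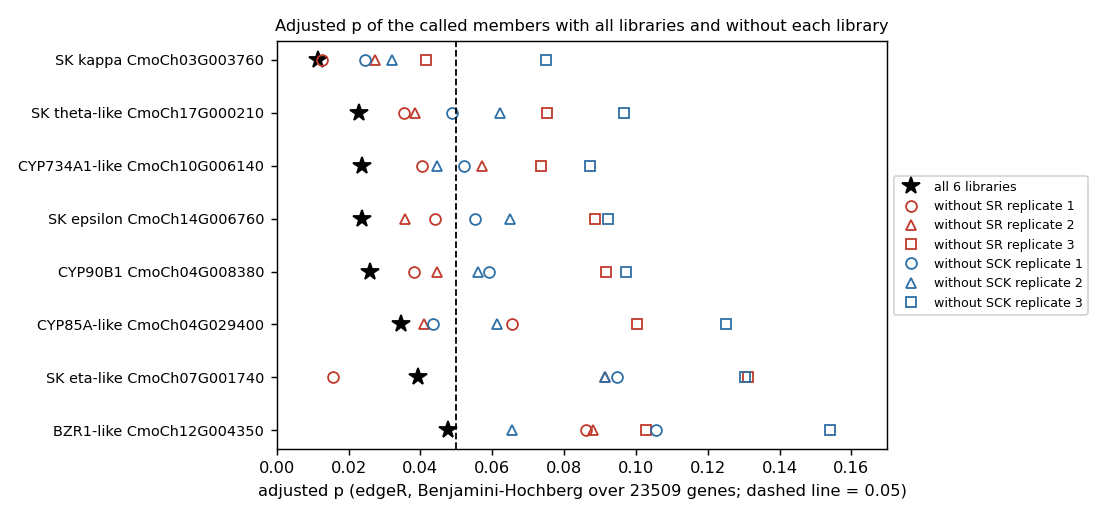
Adjusted p of the 8 called members from edgeR (x axis) with all 6 libraries (star) and without each library in turn (red for SR, blue for SCK). Without SCK replicate 3 every value lies to the right of the dashed line at 0.05, between 0.0749 and 0.154.

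Leaving out a library changed which members were called. In edgeR fits without SCK replicate 3, 0 of the 42 members were called and 0 of all tested genes, with 10 members at an unadjusted p under 0.05, among them all 8 called ones. DESeq2 without that library called 3 rises and 4 falls among the members, 7 of the same 8, against 7.62% rises and 7.85% falls over all tested genes. Without SR replicate 3 kinase kappa CmoCh03G003760 was the 1 member still called by edgeR. That gene was called without each library other than SCK replicate 3 (adjusted p = 0.0126 to 0.0416). By limma the BZR1-like gene CmoCh12G004350 and the theta and epsilon kinases CmoCh17G000210 and CmoCh14G006760 were not called (adjusted p = 0.122, 0.0615 and 0.0716). All 8 members kept their direction in all of these fits, which groups that do not overlap nearly fix in advance.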

How the data were processed

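Stranded libraries of poly(A) RNA with inserts averaging 300 bp were read from both ends, per the labels' protocols. The authors deposited whole-number counts and FPKM per gene in 1 table, per the file headers, and HISAT and StringTie are named in the submitters' processing notes without versions. Genome build, annotation and use of strand are not stated in these sources, and values of close copies and overlapping genes are uncertain. A total of 6 further value columns matching no sample were not used. FPKM is 0.0001 in all 28770 places with a count of 0. The value 4 occurred 1350 times among the counts, against 567 times for 3 and 516 for 5, so 1 fragment may be worth about 4 deposited counts, and dividing by 4 was an alternative.

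The main test was edgeR 4.0.16 (R 4.3.3; glmQLFit and glmQLFTest, TMM factors, group as the only term) on 23509 genes with at least 1 FPKM in at least 3 libraries. Each SE is the log2 change divided by the square root of F. DESeq2 1.42.0 and limma 3.58.1 (log2(FPKM + 1)) were alternatives, and the functions were tested on simulated counts. Members and lists were chosen with earlier results of these data known. Named members are all called ones, and per role the most abundant and that with the smallest adjusted p. Per list all called genes are named, 3 at most with values, and genes named beyond this were chosen after their values were seen.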

Additional observations from a re-analysis of the deposited data

How the results depend on the processing

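The 8 called members kept their direction in every fit run here. Another size factor method (RLE), a filter on the mean FPKM and counts divided by 4 called the same 8, and no filter lost only the BZR1-like fall, leaving 0 falls among factors. Among the members named by the rule above, BRI1 (CmoCh07G007890), which was not called, had a log2 change of -0.012 with the replicate block, against 0.02 without it. It lay between -0.14 and 0.22 in edgeR fits that left out 1 library, at -0.02 without SCK replicate 2, -0.14 without SR replicate 2 and -0.05 without SR replicate 3. DESeq2 fits without the same libraries gave -0.033, -0.14 and -0.051. Kinase theta-like CmoCh08G008940, outside that rule and not called, moved from 0.01 to -0.07 in edgeR without SCK replicate 3. The causes were not tested. The FPKM filter left 10 members with no test.

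Without TMM factors edgeR called 2602 rises over all tested genes, and 2 falls among members (1 kinase, 0 factors), 1 rise among the other members and 0 falls in signal relay. DESeq2 called 3048 rises and 2978 falls in all, 5 rises among members, 1 each among co-receptors and other members, and 7 rises of sterol genes, 4 falls in relay and 2 falls of downstream genes. With pseudocounts of 1 and 0.1, limma called 1088 and 1055 falls in all. At both it called 2 falls among members (1 kinase, 0 factors), 1 rise among the other members, 7 rises of sterol genes and 0 falls in relay and downstream lists.

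Replicate numbers showed no pairing of the libraries: deviations of same-numbered libraries correlated at -0.15, -0.25 and 0.09. Deviations of 3 libraries from their own mean are tied to each other, so these values cannot exclude a pairing. With a replicate block edgeR called 0 rises and 0 falls over all tested genes, members and lists, while 6564 genes and 12 members, all 8 called ones included, had an unadjusted p under 0.05.

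Leaving out each library in turn, edgeR called 0 to 1830 rises and 0 to 1607 falls in all, and 0 to 3 rises and 0 to 4 falls among members. By role these were 0 to 2 synthesis rises, 0 to 1 inactivation falls, 0 to 1 co-receptor rises, 0 to 1 kinase rises, 0 to 3 kinase falls and 0 factor falls. The lists ranged over 0 to 7 rises and 0 to 1 falls of sterol genes, 0 to 2 rises and 0 to 2 falls in relay, and 0 to 8 rises and 0 to 1 falls downstream.

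DESeq2 without each library, chosen after seeing the data, called 1791 to 3217 rises and 1846 to 3248 falls in all, and 2 to 6 rises and 4 to 7 falls among members. Rises in all numbered 3217 and 2554 when SR replicates 1 and 2 were left out in turn, and 2584 and 2657 for SCK replicates 1 and 2. Falls numbered 3248 and 2851 for the same SR replicates, and 2697 for SCK replicate 2. By role the ranges were 2 to 3 synthesis rises, 1 to 2 inactivation falls, 0 to 1 co-receptor rises, 0 to 1 kinase rises, 3 to 4 kinase falls, 0 to 2 factor rises, 0 to 1 factor falls and 0 to 1 rises of other members. The lists gave 4 to 7 rises and 1 to 2 falls of sterol genes, 2 to 6 rises and 2 to 3 falls in relay, 6 to 10 rises and 1 to 4 falls downstream and 0 to 1 falls in conjugation.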
